A study of Mus musculus with 12 samples.

Results

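The genes of cholesterol synthesis and of the sterol regulatory element-binding proteins (SREBPs) are described here in Sol8 cells, a mouse myogenic line derived from soleus muscle. The set held 32 genes, picked by symbol for their place in the pathway, with earlier results of these data known, out of 48586 genes with raw counts. All 32 had at least 10 counts over the 12 libraries and were among the 20415 genes tested. By role, 7 encode enzymes of precursor supply and the mevalonate steps, 11 encode enzymes of the squalene and sterol steps, 6 encode regulators and a sterol carrier, and 8 encode enzymes that make, desaturate or elongate fatty acids.

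Wild type Sol8 cells (WT) were compared with Sol8 cells knocked out for Gne (Gne KO), whose product is the bifunctional enzyme that limits the synthesis of sialic acid. The knock out was made by CRISPR/Cas9 and the cells were 1 clone with a 43 bp deletion in exon 3, so that the loss of Gne and other properties of the clone cannot be told apart. Both genotypes were sequenced as proliferative cells in medium with 10% FCS and as differentiated cells in medium with 2% horse serum, so that the state of the cells and the serum cannot be told apart either. In differentiation medium the paper described myotubes in WT cultures, but mostly unfused single cells in Gne KO cultures. For Gne KO cells, differentiated and with differentiation therefore name the medium here, and not a state they were shown to reach. Each of the 4 groups had 3 libraries from separate cultures, and p-values measure the spread between cultures of 1 WT line and 1 clone.

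Cholesterol is built from acetyl-CoA through mevalonate, isoprenoid diphosphates, squalene and lanosterol. SREBPs are transcription factors made as membrane-bound precursors in the endoplasmic reticulum, where Scap carries them towards the Golgi for cleavage when sterols are low and the Insig proteins hold them back when sterols are high. The SREBP encoded by Srebf2 acts mainly on cholesterol genes and the forms encoded by Srebf1 mainly on fatty acid genes, and serum lipoproteins supply sterol to cultured cells.

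The libraries held 22612038 to 29389759 raw counts (median 26740404). Gne itself, whose short deletion need not lower a count taken over the whole gene, had 255 to 278 normalized counts in the WT proliferative libraries, 264 to 285 in WT differentiated, 232 to 344 in Gne KO proliferative and 205 to 212 in Gne KO differentiated, so its count does not check the label. A normalized count is a raw count scaled to the mean effective library size. The 7 skeletal muscle markers were all detected, but their summed normalized count was 9764 to 20650 in the 6 Gne KO libraries against 32010 to 62420 in the 6 WT libraries. Des was the largest part of this sum in Gne KO cells, with means of 13330 in proliferative and 8210 in differentiated cells. Of the 7 markers, 6 were lower in Gne KO proliferative cells (against 27.2% of all genes tested) and 7 in Gne KO differentiated cells (against 12.5%). Their median log2 fold changes were -3.51 and -4.73. In differentiated cells Myog had a mean of 159 in Gne KO against 4240 in WT. WT proliferative library 1 had a marker sum of 62420 against 32010 and 32140 in the other 2 WT proliferative libraries, which is above all 3 WT differentiated libraries (51230 to 59200). Of 6 adipocyte markers, Adipoq, Plin1 and Cidec had under 10 counts over all libraries, and the sum of the 6, nearly all of it Cebpa, was 702 to 737 in WT proliferative, 454 to 504 in WT differentiated, 1622 to 2183 in Gne KO proliferative and 566.5 to 650.4 in Gne KO differentiated libraries. The 4 macrophage markers summed to 59.2 to 114.5 in every library, with Adgre1 at 0. In bulk RNA, fewer cells of a type and less RNA per cell cannot be told apart, and the part of these cell types in the members' counts was not tested.

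RefSeq promoter windows on GRCm38.p6, which run from 250 bases before to 50 bases after a transcript start, were at hand for 25 members in 33 windows. Fdps, Fdft1, Sqle, Stard4, Scd1, Scd2 and Fads1 had none in the table. The letters TCACNCCAC, the core of a sterol regulatory element to which SREBPs bind, were found on either strand in 1 of these 33 windows, that of Hmgcs1, and in 1.24% of all 32851 windows. CCAAT, the box of the SREBP partner NF-Y, was in 63.6% of the members' windows and 37.4% of all, and the Sp1 box GGGCGG in 75.8% and 35.7%. The E-box CACGTG was in 18.2% and 7.15%. These matches are descriptions of letters and not of bound sites. Below are the windows of Hmgcs1 (chr13:119690101-119690400, plus strand), lower in Gne KO cells of both states, of Mvk (chr5:114444019-114444318, plus strand), higher in proliferative Gne KO cells, and of Idi1 (chr13:8885356-8885655, plus strand), the member that fell most there. Capitals mark matches of TCACNCCAC, CCAAT or GGGCGG on either strand, and the Hmgcs1 match of TCACNCCAC, written TCACCCCAC, begins 137 bases before the start.
Hmgcs1: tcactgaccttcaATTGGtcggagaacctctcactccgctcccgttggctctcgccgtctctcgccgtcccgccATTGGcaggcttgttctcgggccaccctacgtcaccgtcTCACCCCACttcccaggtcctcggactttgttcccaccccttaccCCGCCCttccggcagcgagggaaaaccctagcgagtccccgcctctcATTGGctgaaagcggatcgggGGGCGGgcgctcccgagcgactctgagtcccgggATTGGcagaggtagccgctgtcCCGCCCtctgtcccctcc
Mvk: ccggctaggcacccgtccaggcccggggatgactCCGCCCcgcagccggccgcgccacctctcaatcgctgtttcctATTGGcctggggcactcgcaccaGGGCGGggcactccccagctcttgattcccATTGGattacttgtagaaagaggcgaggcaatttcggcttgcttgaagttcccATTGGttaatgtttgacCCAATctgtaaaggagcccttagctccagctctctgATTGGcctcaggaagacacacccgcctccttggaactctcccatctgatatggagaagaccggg
Idi1: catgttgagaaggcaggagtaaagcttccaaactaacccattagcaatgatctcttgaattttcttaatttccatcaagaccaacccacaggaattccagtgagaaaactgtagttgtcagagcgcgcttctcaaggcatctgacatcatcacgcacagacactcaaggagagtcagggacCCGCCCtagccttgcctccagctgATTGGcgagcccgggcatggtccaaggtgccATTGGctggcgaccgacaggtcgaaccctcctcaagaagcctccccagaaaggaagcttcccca

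The members were well expressed, with means over the 12 libraries from 617 normalized counts for Fdps to 96030 for Scd2. To set genes side by side, levels were taken per kilobase of the longest annotated transcript. That transcript need not be the form expressed, so the order of genes is approximate. On this scale the mean level in WT proliferative cells was highest for Scd2 (15620), the ubiquitous stearoyl-CoA desaturase of the mouse. Hmgcs1 (4118) and Srebf2 (3257) followed, and Tm7sf2 (116) and Fdps (156) were lowest. Scd2 was also highest per kilobase after differentiation of WT cells (22050) and in Gne KO cells of both states (17990 when proliferative, 14750 when differentiated). Between the lowest and the highest of the 12 libraries, normalized counts differed least for Acaca (1.20-fold) and most for Idi1 (4.17-fold).

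In proliferative cells the question was how the set differed with Gne KO while the cells were growing in 10% FCS. Of the 32 members, 20 were higher in Gne KO (62.5%, against 28.2% of all genes tested), 8 were lower (25%, against 27.2%) and 4 did not pass an adjusted p of 0.05 in limma voom. The median log2 fold change over the members was 0.28, against -0.02 over all genes. The 3 Gne KO libraries lay above the 3 WT libraries for 19 members, against 29.4% of all genes, and below them for 5, against 28.5%. Members are more abundant than most genes, and among the 7188 genes at least as abundant as the lowest member 48.2% were higher and 28.9% lower, with a median of 0.19. Mvk (mevalonate kinase, log2 fold change ± SE 1.06 ± 0.12), Tm7sf2 (a sterol C14 reductase, 0.96 ± 0.14) and Fads2 (delta-6 desaturase, 0.88 ± 0.14) rose most, and Idi1 (isopentenyl-diphosphate isomerase, -1.32 ± 0.17), Srebf1 (-0.69 ± 0.11) and Elovl6 (an elongase of C16 fatty acids, -0.68 ± 0.13) fell most. With library size alone as the scale, 13 members were higher (against 20.5% of all genes) and 11 lower (against 32.7%, near their own share), and the median of all genes moved from -0.02 to -0.21 and that of the members to 0.10. A fit on these 6 libraries alone gave 14 higher (against 24.8% of all genes) and the same 8 lower (against 27.6%). The rises of Acly, Dhcr7, Fasn, Scd1, Scd2 and Sqle did not pass in that fit.

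Other measured values go with these. The 3 Gne KO proliferative libraries stood further apart than any other group, with deviations from the mean of the other 2 libraries of the group of SD 0.30 to 0.40 on the log2 scale over 10684 genes, against 0.09 to 0.29 in the other groups, where the 0.29 was WT proliferative library 1. The log2 fold change also followed the GC content of the transcript, with a Spearman correlation of 0.61 across 10676 genes and 0.62 across the 32 members, points that share the same 6 libraries. The 6 members of lowest GC content (Idi1, Sc5d, Hmgcs1, Hsd17b7, Stard4 and Elovl6) were all lower in Gne KO, and 14 of the 15 members with at least 50% GC were higher, the other being Srebf1. After the trend in GC content and length was removed from each library, 8 members were higher (against 21.4% of all genes; Acat2, Mvk, Fdps, Tm7sf2, Nsdhl, Insig2, Scd1 and Fads2) and 4 lower (against 24.1%; Hmgcs1, Idi1, Insig1 and Srebf1), all among the 20 and the 8, and the median was 0.08 against -0.06 over all genes. The 8 of 32 is near the share of all genes and the 4 of 32 below it. Without WT proliferative library 1 the split was 18 higher and 10 lower (against 26.5% and 26.4% of all genes), and without the libraries numbered 1 of both genotypes 20 and 10 (against 29.5% and 28.6%).

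In differentiated cells, in 2% horse serum, the direction was mostly the opposite. Here 16 members were lower in Gne KO (50%, against 12.5% of all genes tested), 2 were higher (6.25%, against 11.1%) and 14 did not pass. The median log2 fold change was -0.36, against -0.01 over all genes, and among the 7188 abundant genes 14.2% were lower and 15% higher. Srebf1 (-1.31 ± 0.11), Mvd (mevalonate diphosphate decarboxylase, -1.04 ± 0.15), Hmgcs1 (the cytosolic HMG-CoA synthase, -0.73 ± 0.10) and Scd1 (-0.73 ± 0.09) fell most, while Insig2 (0.51 ± 0.10) and Scap (0.34 ± 0.11) were the 2 that rose. All but 4 members (Tm7sf2, Elovl6, Insig2 and Scap) had their 3 Gne KO libraries below their 3 WT libraries, 87.5% of the set against 26.3% of all genes tested and 34% of the abundant ones, and Insig2 and Scap had them above, against 24.6% of all genes. The correlation of log2 fold change with GC content was 0.15 across 10676 genes, and the 6 libraries deviated from the other 2 of their group by an SD of 0.09 to 0.15. With the GC and length trend removed 22 members were lower (against 14.7% of all genes), the 16 among them, and a fit on these 6 libraries alone gave 26 lower (against 22.8%) and again 2 higher. The adjusted p of Scap (0.0388) rose above 0.05 when any 1 of the 6 differentiated libraries, or WT proliferative library 2, was left out, with adjusted p of 0.05197 to 0.1315 and log2 fold changes of 0.31 to 0.37.

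**Figure D1:**
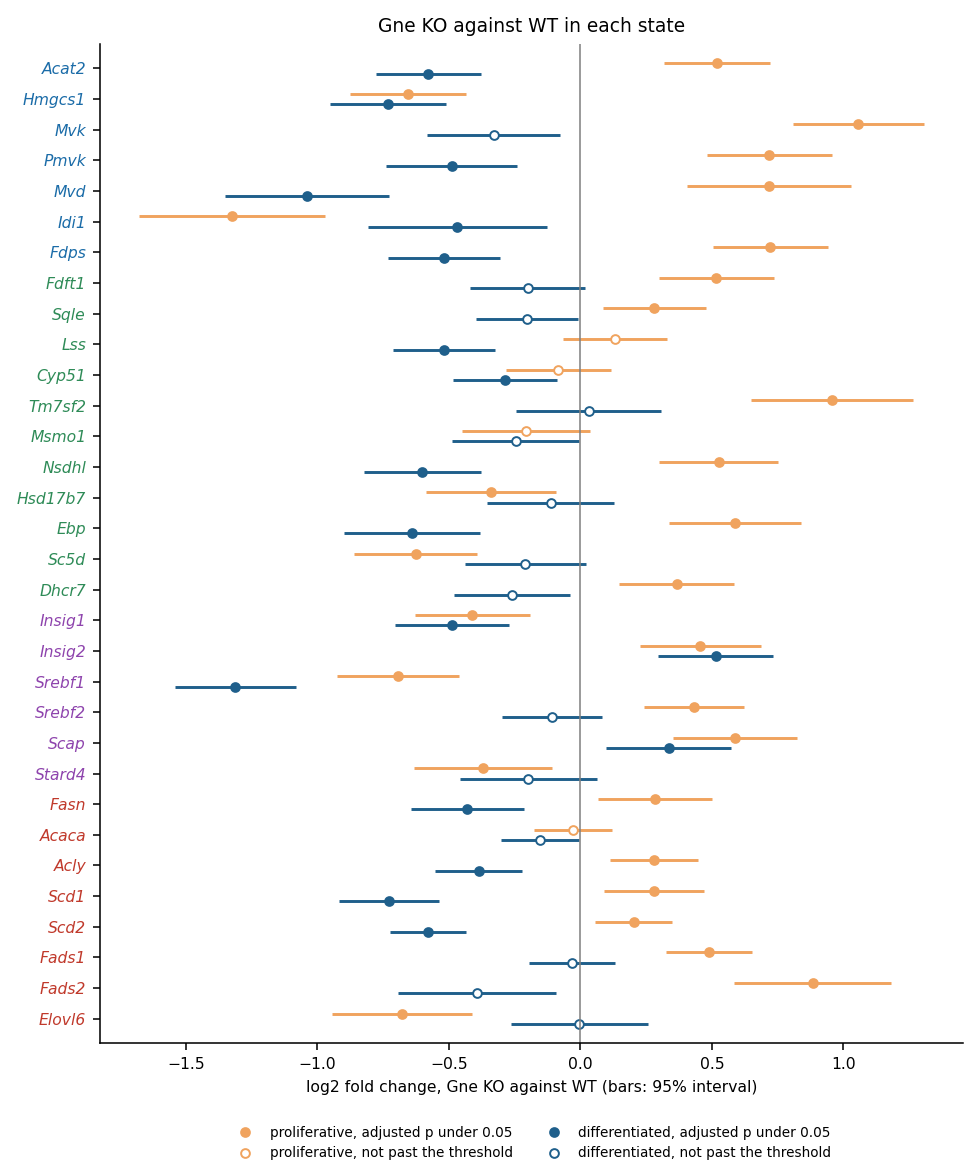
Log2 fold change of each member in Gne KO against WT, with 95% intervals, in proliferative (orange) and differentiated cells (blue), ordered by role; filled points passed an adjusted p of 0.05 in limma voom. Orange points lie mostly to the right of 0 (20 members higher, 8 lower; 13 and 11 with library size alone as the scale) and blue points mostly to the left (2 higher, 16 lower).

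The 2 comparisons share no library. Acat2, Pmvk, Mvd, Fdps, Nsdhl, Ebp, Fasn, Acly, Scd1 and Scd2, 10 members in all, were higher in proliferative and lower in differentiated Gne KO cells, and 4 members (Hmgcs1, Idi1, Insig1 and Srebf1) were lower and 2 (Insig2 and Scap) higher in both. The share of all genes with such pairs of calls was not counted. With the GC and length trend removed, the proliferative rises of Pmvk, Mvd, Ebp, Fasn, Acly, Scd2 and Scap did not pass. Acat2, Fdps, Nsdhl and Scd1 still passed in opposite directions, and Hmgcs1, Idi1, Insig1, Srebf1 and Insig2 in the same direction in both states. In the fit on the 6 proliferative libraries alone, the rises of Scd1 (0.23), Acly (0.23), Fasn (0.23) and Scd2 (0.15) did not pass. Those of Acat2, Fdps and Nsdhl passed there too. A difference between the states was tested as the interaction of genotype and state, in which a negative log2 value means that Gne KO minus WT was lower in differentiated than in proliferative cells. It was below 0 past the threshold for 20 members (62.5%, against 22.2% of all genes tested and 38.6% of the 7188 abundant genes) and above 0 for 3 (9.38%, against 19.7%), with a median of -0.62 against -0.02 over all genes. The 3 above 0 were Idi1, Sc5d and Elovl6, all among the 6 members of lowest GC content, and none of the 3 passed once the GC and length trend was removed. The correlation of the interaction with GC content was -0.55 across 10676 genes and -0.64 across the members. After removal of the trend 16 members were below 0 against 17% of all genes, 15 of them among the 20, and the median was -0.32 against 0.04 over all genes.

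The same interaction can be read as how each genotype changed from proliferative to differentiated. In WT cells 13 members were higher in differentiated cells (40.6%, against 16.6% of all genes tested) and 0 were lower (against 15.3%, and 27.9% of the abundant genes), with a median of 0.27 against 0.02 over all genes. By limma voom 0 members were lower also at an unadjusted p under 0.05, limma-trend gave 0, and a fit on these 6 libraries alone gave 1, Stard4 (against 21.5% of all genes), beside 20 higher. In Gne KO cells 17 were lower (53.1%, against 27.7% of all genes and 49.2% of the abundant ones), 5 were higher (15.6%, against 28.7%) and the median was -0.26 against 0.07, but with library size alone as the scale the members split into 8 higher and 9 lower (against 37.6% and 19% of all genes) with a median of 0.01, while all genes moved to 0.34. A fit on the 6 Gne KO libraries alone gave 15 lower (against 28.9% of all genes) and 5 higher (against 29.9%). With the GC and length trend removed 11 were lower (against 24.5% of all genes) and 4 higher (against 28.7%) in Gne KO, while in WT cells 17 were higher (against 18.7%) and 0 lower (against 17.5%). Of the members 7 (Acat2, Acly, Fdft1, Fdps, Mvd, Nsdhl and Scd2) rose in WT and fell in Gne KO, and Insig2 alone rose in both. The share of all genes with such pairs of calls was not counted. With the GC and length trend removed, the Gne KO values of Acly (0.06), Fdft1 (0.01), Fdps (-0.18) and Scd2 (-0.11) did not pass. Acat2, Mvd and Nsdhl then kept both changes, and Idi1, Tm7sf2 and Elovl6 rose in both genotypes beside Insig2.

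**Figure D2:**
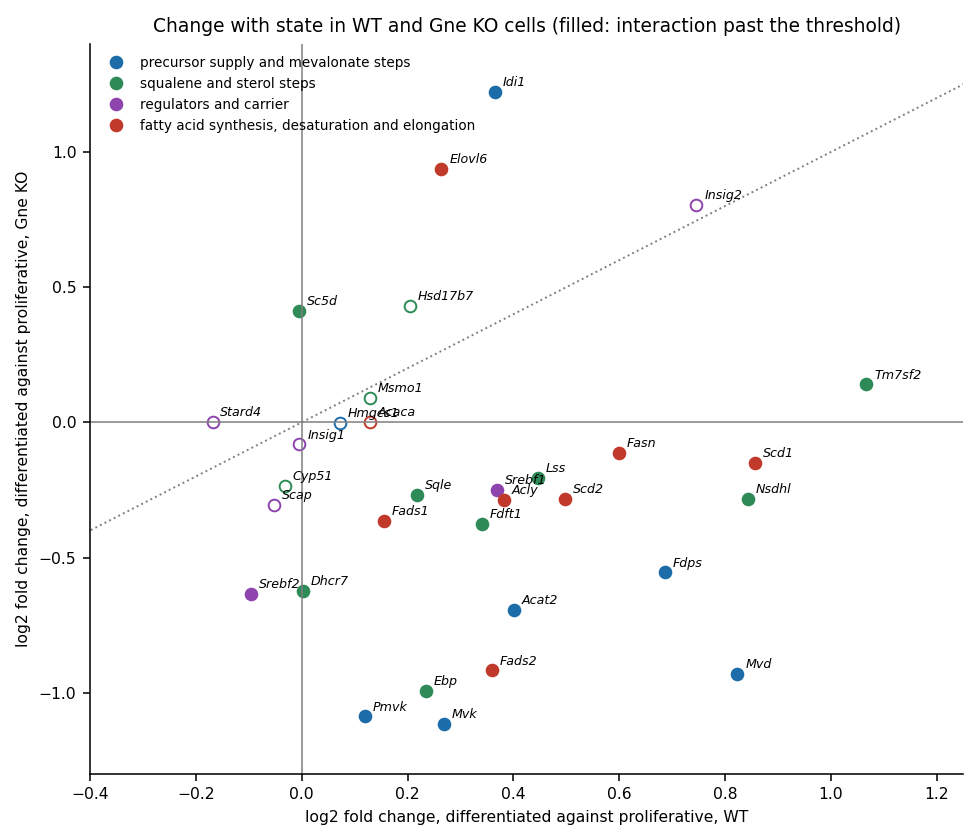
Log2 fold change from proliferative to differentiated cells in WT (x axis) and Gne KO (y axis) for the 32 members, coloured by role, with filled points where the interaction passed an adjusted p of 0.05; the dotted line marks equal change. Of the points, 20 filled ones lie below the line and 3 (Idi1, Sc5d and Elovl6) above it.

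A stricter call, which adds an effect filter, needs a mean of 5 or more counts and a log2 change whose size exceeds 0.9 plus 7.5 over the square root of that mean. It took 1 member in the proliferative comparison (Idi1, against 9.25% of all genes), 1 in the differentiated comparison (Srebf1, against 3.00%), 0 with state in WT cells (against 2.70%) and 2 with state in Gne KO cells (Mvk lower and Idi1 higher, against 11.7%). These counts of 1 or 2 in 32 are near or below the backgrounds. On GRCm38, Idi1 (ENSMUSG00000058258) lies on chromosome 13 from 8885501 to 8892451 on the plus strand, Mvk (ENSMUSG00000041939) on chromosome 5 from 114444269 to 114460591 on the plus strand, and Srebf1 (ENSMUSG00000020538) on chromosome 11 from 60199089 to 60222581 on the minus strand. Without Gne KO proliferative library 1, which lay nearest to WT for Mvk, Idi1 and Fads2, the calls were Mvk, Idi1 and Fads2 in proliferative cells and Mvk, Pmvk, Idi1, Fads2 and Elovl6 with state in Gne KO cells. With the GC and length trend removed, the proliferative call was Srebf1 in place of Idi1 and no member was called with state in Gne KO cells.

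Among the enzymes of precursor supply and the mevalonate steps, 5 of 7 were higher and 2 lower in proliferative Gne KO cells, and 6 of 7 were lower in differentiated Gne KO cells. Against the shares of all genes tested in proliferative (28.2% higher and 27.2% lower) and differentiated cells (11.1% and 12.5%), the 2 lower were at the background. With the GC and length trend removed, the proliferative rises of Pmvk and Mvd did not pass. Acat2, the cytosolic thiolase that joins acetyl-CoA units, had normalized counts of 2022, 2560 and 2592 in WT proliferative, 3227, 3320 and 3667 in Gne KO proliferative, 3194, 3220 and 2992 in WT differentiated and 2027, 2094 and 2182 in Gne KO differentiated libraries. The Gne KO libraries lay above all WT libraries in the first state and below all in the second (0.52 ± 0.09 and -0.58 ± 0.09, interaction -1.10 ± 0.13). Hmgcs1, which makes HMG-CoA, behaved differently: its counts were 12020, 15180 and 15590 in WT and 10120, 9070 and 7909 in Gne KO proliferative libraries, and 14860, 14070 and 15780 and 8881, 8711 and 9334 in differentiated ones. It was lower in Gne KO in both states, without overlap, and the interaction was -0.08 ± 0.15 with a 95% interval of -0.39 to 0.24; with the GC and length trend removed the fall in proliferative cells was smaller (-0.24) and the interaction passed at -0.53.

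Mvk phosphorylates mevalonate, Pmvk adds the next phosphate and Mvd makes isopentenyl diphosphate. For Mvk the WT proliferative libraries held 868, 976 and 1013 normalized counts and the Gne KO ones 1669, 1870 and 2465, against 1181, 1127 and 1121 and 916, 933 and 882 after differentiation. Gne KO cells had 2.08-fold the WT level when proliferative and 0.80-fold when differentiated, where the groups did not overlap but the adjusted p was 0.0575. Pmvk had 595, 589.5 and 619.6 in WT and 802, 1128 and 1075 in Gne KO proliferative libraries, then 628, 646 and 686 and 453, 464 and 478. Its rise in proliferative Gne KO cells (0.72 ± 0.11) did not pass once the GC and length trend was removed (0.16, adjusted p = 0.137), whereas its fall in differentiated cells (-0.49 ± 0.12) did. Mvd had 688, 938 and 1067 in WT and 1178, 1456 and 1754 in Gne KO proliferative libraries, and 1596, 1572 and 1492 and 756, 783 and 731 in differentiated ones. It showed the most negative interaction of the set (-1.75 ± 0.21, adjusted p = 1.323e-05; -1.22 with the trend removed), since it rose with differentiation in WT cells (0.82 ± 0.15) and fell in Gne KO cells (-0.93 ± 0.15).

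Idi1 and Fdps act on the isoprenoid diphosphates and moved apart. Idi1, which isomerises isopentenyl diphosphate, had 3499, 4640 and 4716 normalized counts in WT and 2383, 1454 and 1389 in Gne KO proliferative libraries. In differentiated libraries it had 5726, 4915 and 5797 in WT and 3694, 3852 and 4335 in Gne KO. Gne KO was below WT without overlap in both states, at 0.40-fold and 0.72-fold, and Idi1 rose with differentiation in Gne KO cells (1.22 ± 0.17). With the GC and length trend removed the proliferative difference was -0.74, and the interaction of 0.86 ± 0.23 became 0.24 (adjusted p = 0.286). Fdps, which makes farnesyl diphosphate, had 413, 473 and 494 in WT and 712, 703 and 856 in Gne KO proliferative libraries, and 744, 707 and 756 and 486, 510.2 and 545 in differentiated ones. The Gne KO libraries were all above WT in the first state and all below in the second, and the interaction was -1.24 ± 0.14 (-0.85 with the trend removed).

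Among the 11 enzymes of the squalene and sterol steps, 6 were higher and 2 lower in proliferative Gne KO cells, 4 were lower and 0 higher in differentiated Gne KO cells, and 7 had a negative interaction. The 6 higher are 54.5% of this group, against 28.2% of all genes and 48.2% of the abundant ones, and the 4 lower are 36.4%, against 12.5% of all genes. With the GC and length trend removed, the proliferative values of Fdft1 (0.13), Sqle (0.14), Ebp (0.22) and Dhcr7 (-0.08) did not pass. Of the 6, Tm7sf2 and Nsdhl then stayed higher, against 21.4% of all genes. The 7 negative interactions are 63.6%, against 22.2% of all genes and 38.6% of the abundant ones. Those of Sqle and Dhcr7 did not pass with the GC and length trend removed. Fdft1, squalene synthase, had 3791, 3799 and 3891 normalized counts in WT and 4486, 6476 and 5660 in Gne KO proliferative libraries, and 4661, 4757 and 5127 and 4239, 4208 and 4197 in differentiated ones. All 3 Gne KO libraries were above WT and then below it, although only the first difference passed (0.52 ± 0.10 and -0.20 ± 0.10); Fdft1 overlaps Ctsb, on the other strand with 602% of its counts, and no source used here states the strand setting of the counting. Sqle, squalene epoxidase, had 7738, 10040 and 10290 in WT and 11340, 10720 and 11760 in Gne KO proliferative libraries, and 10660, 10800 and 10880 and 9242, 9386 and 9459 in differentiated ones. WT library 1 was far below the other 2, and the interaction of -0.48 ± 0.13 did not pass with the trend removed (-0.34, adjusted p = 0.053). Lss, which closes the ring to lanosterol, had 2349, 3092 and 2981 in WT and 3070, 2901 and 3182 in Gne KO proliferative libraries, which overlap. Differentiated libraries of Lss did not overlap, with 3782, 3751 and 3839 in WT and 2653, 2567 and 2723 in Gne KO (-0.52 ± 0.09).

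Tm7sf2 is 1 of the reductases that act after lanosterol. Its counts were 284, 393 and 393 in WT and 599.6, 623 and 835 in Gne KO proliferative libraries, and 743, 770.3 and 683 and 690.4, 785 and 774 in differentiated ones. The WT proliferative group alone was low, so that Gne KO was 1.94-fold higher in that state and overlapped WT in the other (0.03 ± 0.13). Tm7sf2 shares its strand with Vps51, whose counts were 11.3% of those of Tm7sf2. Nsdhl, a sterol decarboxylase on the X chromosome, had 1697, 2238 and 2187 in WT and 2538, 3236 and 3005 in Gne KO proliferative libraries, and 3591, 3700 and 3589 and 2357, 2348 and 2466 in differentiated ones. It rose 1.79-fold with differentiation in WT cells, fell in Gne KO cells (-0.28 ± 0.11) and kept its interaction (-1.13 ± 0.15) at -1.18 with the trend removed.

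Ebp, the sterol isomerase, had 630, 735 and 699 normalized counts in WT and 848, 1071 and 1211 in Gne KO proliferative libraries, and 853, 838 and 732 and 529.5, 532 and 492 in differentiated ones. The groups were apart in both states, in opposite directions (0.59 ± 0.12 and -0.64 ± 0.12), and Ebp fell to 0.50-fold with differentiation in Gne KO cells. Sc5d, the C5 desaturase, went against most of the set, with 2437, 3257 and 3161 in WT and 2152, 1834 and 1716 in Gne KO proliferative libraries, and 2919, 2817 and 3005 and 2390, 2489 and 2683 in differentiated ones. It was lower in proliferative Gne KO cells (-0.63 ± 0.11), but -0.09 and not past the threshold with the GC and length trend removed, and the interaction (0.42 ± 0.15, adjusted p = 0.0406) turned to -0.18. Dhcr7, the last reductase before cholesterol in 1 branch of the pathway, had 1280, 1449 and 1491 in WT and 1538, 1829 and 2098 in Gne KO proliferative libraries, and 1396, 1467 and 1350 and 1140, 1206 and 1175 in differentiated ones. Its rise in proliferative Gne KO cells (0.37 ± 0.10) became -0.08 with the trend removed.

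Of the other 3 enzymes of this group, none had an interaction past the threshold. Cyp51, lanosterol demethylase, had 6259 to 8608 normalized counts in all 12 libraries and was lower in differentiated Gne KO cells (-0.29 ± 0.09). Its fall with differentiation in Gne KO cells (-0.23 ± 0.09) became 0.03 with library size alone as the scale, and it overlaps Akap9, on the other strand with 39.2% of its counts. Msmo1, a sterol C4 oxidase, passed no comparison (-0.21 ± 0.12 in proliferative and -0.25 ± 0.11 in differentiated cells, interaction -0.04 ± 0.16). Hsd17b7, a keto-sterol reductase, was lower in proliferative Gne KO cells (-0.34 ± 0.12), with overlapping groups, and this became 0.05 with the trend removed. It rose with differentiation in Gne KO cells (0.43 ± 0.12), which became 0.03 with the trend removed.

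The regulators split. Of 6 genes, 3 were higher (Insig2, Srebf2 and Scap) and 3 lower (Insig1, Srebf1 and Stard4) in proliferative Gne KO cells, and 2 were higher (Insig2 and Scap) and 2 lower (Insig1 and Srebf1) in differentiated ones (all genes tested 28.2% and 27.2%, then 11.1% and 12.5%). Srebf1 had 4159, 3530 and 3601 normalized counts in WT and 2131, 2105 and 2793 in Gne KO proliferative libraries, and 4988, 5224 and 4383 and 2018, 1972 and 1874 in differentiated ones. Gne KO was at 0.62-fold and 0.40-fold of WT, without overlap. With the GC and length trend removed the values were -1.20 and -1.38 and the interaction (-0.62 ± 0.15) became -0.18 (adjusted p = 0.252); an overlap of 109 bases with Rai1 on the other strand could not be split. Srebf2 took another course, with 17500, 16160 and 15950 in WT and 19040, 22780 and 25520 in Gne KO proliferative libraries, and 15470, 15750 and 15200 and 14710, 14320 and 14010 in differentiated ones. It was higher in all 3 proliferative Gne KO libraries (0.43 ± 0.09), which became -0.01 with the trend removed, and its differentiated value was -0.11 ± 0.09.

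The Insig pair, which retain the Scap complex in the endoplasmic reticulum, differed in direction. Insig1, itself an SREBP target, had 4367, 5493 and 5901 normalized counts in WT and 4427, 3727 and 3632 in Gne KO proliferative libraries, which overlap by 1 library each, and 5148, 5123 and 5298 and 3705, 3753 and 3644 in differentiated ones, which do not. Insig2 had 1102, 1228 and 1337 in WT and 1996, 1452 and 1594 in Gne KO proliferative libraries, and 2043, 2132 and 1949 and 2939, 2781 and 3022 in differentiated ones. Thus Insig1 was lower in Gne KO in both states (-0.41 ± 0.10 and -0.49 ± 0.10) and Insig2 higher in both (0.46 ± 0.11 and 0.51 ± 0.10), and the interactions did not pass (Insig1 -0.08 ± 0.14, 95% interval -0.38 to 0.23; Insig2 0.06 ± 0.15, 95% interval -0.26 to 0.38). All 4 of these values passed also with the GC and length trend removed. Scap was higher in both states (0.59 ± 0.11 and 0.34 ± 0.11), the first of which became 0.07 with the trend removed. Stard4, a carrier of sterol between membranes, was lower in proliferative Gne KO cells (-0.37 ± 0.12), with Gne KO library 1 inside the WT range.

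Of the 8 fatty acid genes, 6 were higher and 1 (Elovl6) lower in proliferative Gne KO cells, 4 were lower and 0 higher in differentiated Gne KO cells, and 6 had a negative interaction. The 6 higher are 75% of these genes, against 28.2% of all genes and 48.2% of the abundant ones, and the 4 lower are 50%, against 12.5% of all genes. With the GC and length trend removed, of the 6 only Scd1 and Fads2 stayed higher, against 21.4% of all genes. In a fit on the 6 proliferative libraries alone only Fads1 and Fads2 did, against 24.8% of all genes. The 6 negative interactions are 75%, against 22.2% of all genes and 38.6% of the abundant ones. That of Fads1 did not pass with the GC and length trend removed. Acly, which makes cytosolic acetyl-CoA from citrate, had 7741, 9401 and 9113 normalized counts in WT and 10120, 10360 and 11320 in Gne KO proliferative libraries, and 11210, 11460 and 11420 and 8631, 8683 and 8749 in differentiated ones. Its rise (0.28 ± 0.08) became -0.08 with the trend removed, while its fall in differentiated cells (-0.39 ± 0.08) stayed at -0.39. Fasn, fatty acid synthase, had 14720, 16920 and 16710 in WT and 17060, 18500 and 23710 in Gne KO proliferative libraries, and 24230, 24760 and 24130 and 18000, 19170 and 17140 in differentiated ones. It rose 1.51-fold with differentiation in WT cells and was at 0.92-fold in Gne KO cells (-0.11 ± 0.10), with an interaction of -0.71 ± 0.14. Acaca, acetyl-CoA carboxylase, passed no comparison (-0.03 ± 0.07 and -0.16 ± 0.07).

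Scd1 and Scd2 encode stearoyl-CoA desaturases, which make monounsaturated fatty acids. Scd1 had 13390, 12690 and 12590 normalized counts in WT and 13910, 18680 and 14750 in Gne KO proliferative libraries, and 23180, 23090 and 23780 and 13990, 14050 and 14250 in differentiated ones. Its rise with differentiation in WT cells was 1.81-fold, against -0.15 ± 0.09 in Gne KO cells (interaction -1.01 ± 0.13; -1.03 with the trend removed). Scd2, the most abundant member, had 90790, 83460 and 81440 in WT and 90290, 104200 and 99930 in Gne KO proliferative libraries, and 120700, 119200 and 121000 and 80040, 80600 and 80690 in differentiated ones. The proliferative groups overlapped (0.20 ± 0.07) and the differentiated groups were far apart (-0.58 ± 0.07, adjusted p = 1.429e-05), with WT libraries within 119200 to 121000 and Gne KO libraries within 80040 to 80690.

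Fads1 and Fads2 are the delta-5 and delta-6 desaturases of polyunsaturated fatty acids and lie next to each other on chromosome 19. Fads1 had 8283, 9048 and 8918 normalized counts in WT and 10890, 12900 and 13170 in Gne KO proliferative libraries, and 9595, 9859 and 9764 and 9586, 9504 and 9494 in differentiated ones. It was higher in proliferative Gne KO cells (0.49 ± 0.08; 0.07 with the trend removed) and close in differentiated ones (-0.03 ± 0.08). For Fads2 the values were 4750, 4982 and 4690 in WT and 6495, 11630 and 9243 in Gne KO proliferative libraries, and 6086, 6223 and 6189 and 4683, 4615 and 4774 in differentiated ones. Gne KO was 1.84-fold above WT in the first state, with library 2 highest, and below WT without overlap in the second (-0.39 ± 0.14, adjusted p = 0.0547). Elovl6, by contrast, had 3264, 3610 and 3401 in WT and 2823, 1767 and 1949 in Gne KO proliferative libraries, and 4021, 3940 and 4378 and 4031, 4193 and 4067 in differentiated ones. Only the proliferative Gne KO group stood low, and the value of -0.68 ± 0.13 became -0.22 (adjusted p = 0.060) with the GC and length trend removed.

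**Figure D3:**
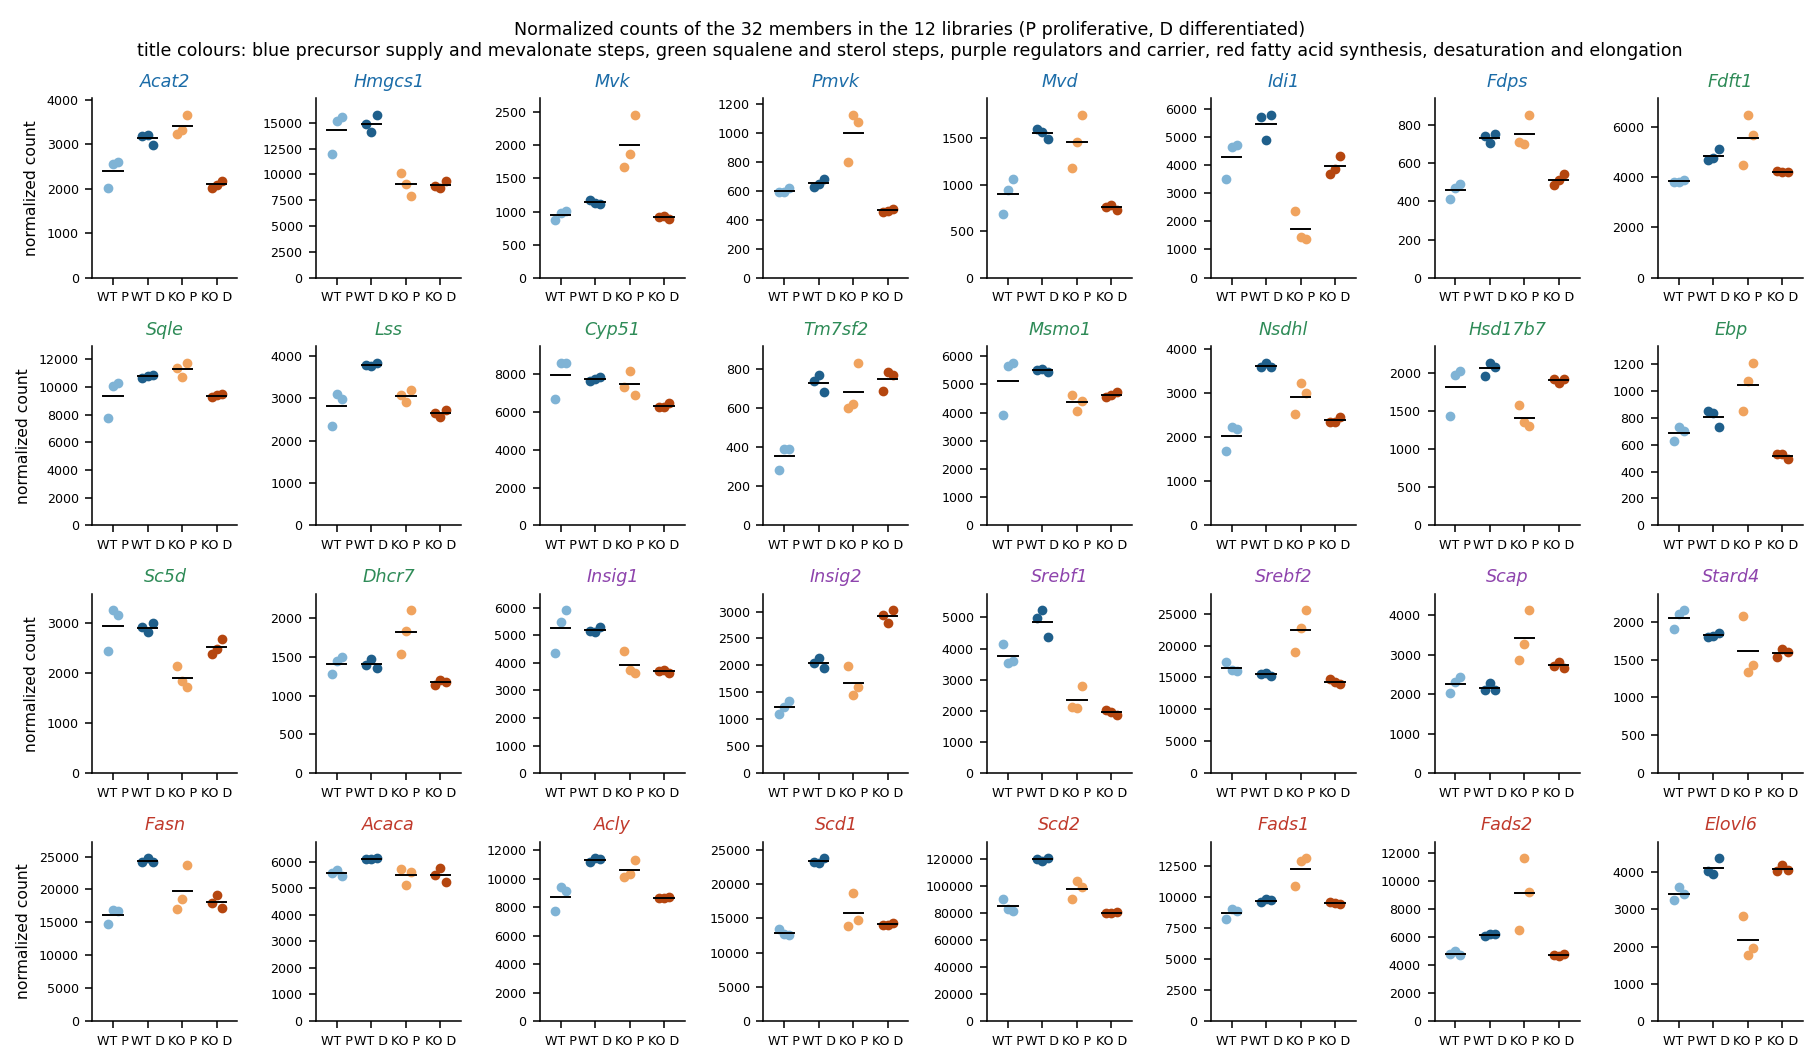
Normalized counts of each member in every library, with 3 points and a bar at the mean for each of the 4 groups, axes from 0. In panels such as Mvd, Fdps and Ebp the orange Gne KO proliferative points lie above the pale blue WT ones and the brown Gne KO differentiated points below the dark blue WT ones, while Hmgcs1 and Srebf1 are lower in Gne KO in both states.

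**Figure D4:**
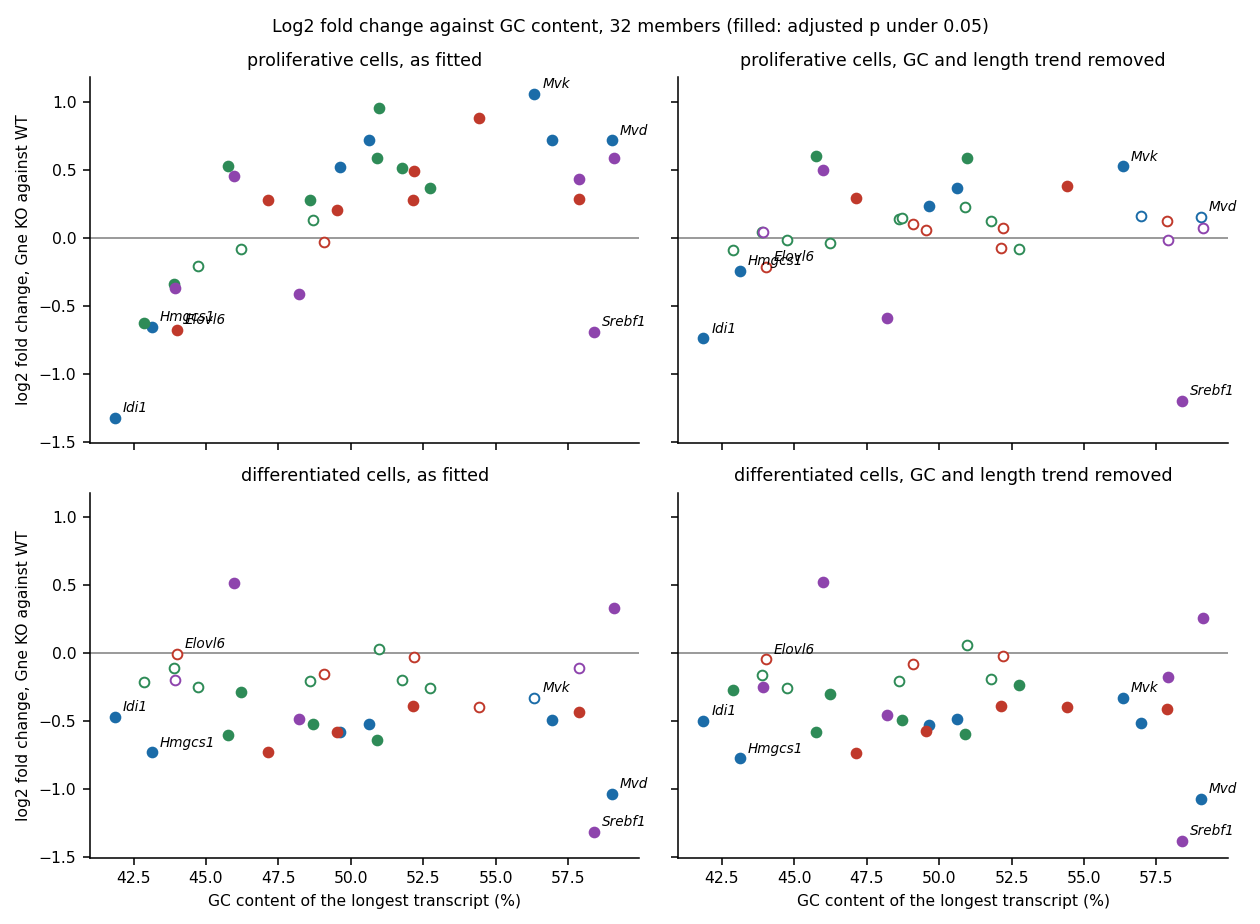
Log2 fold change in Gne KO against WT of the 32 members against the GC content of the longest transcript, from 41.9% to 59.1%, in proliferative (top) and differentiated cells (bottom), as fitted (left) and with the GC and length trend of each library removed (right); filled points passed an adjusted p of 0.05. The slope in proliferative cells (Spearman 0.62 across members) is not seen in differentiated cells (-0.07), where 16 members were lower as fitted and 22 after removal.

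Genes around the pathway were described by lists, to be read against the shares of all genes tested: 28.2% higher and 27.2% lower in proliferative Gne KO cells (48.2% and 28.9% among the abundant genes), and 11.1% higher and 12.5% lower in differentiated ones. Values of all list genes are as fitted, and none is given with the GC and length trend removed. Of 15 further lipogenic and sterol-regulated genes, 9 were higher and 1 lower in proliferative Gne KO cells and 1 was higher and 9 lower in differentiated ones, with 11 interactions below 0 (against 22.2% of all genes) and 0 above. Slc25a1, the mitochondrial citrate carrier, was at 0.82 ± 0.12 (log2 fold change ± SE) in proliferative and 0.19 ± 0.12 in differentiated cells, and G6pdx, which makes NADPH, at 0.86 ± 0.10 and 0.38 ± 0.11. Acsl3, a long-chain acyl-CoA synthetase, was lower in both (-0.61 ± 0.11 and -0.64 ± 0.11), and Fabp5, a fatty acid-binding protein, was at 0.64 ± 0.10 and then -1.63 ± 0.13. Of 9 genes of SREBP processing and sterol sensing, 5 were higher and 2 lower in proliferative and 3 higher and 0 lower in differentiated Gne KO cells, and the 2 lower (22.2%) were below the share of all genes. Mbtps1 and Mbtps2, the site-1 and site-2 proteases that release SREBPs, were at 0.54 ± 0.07 and -1.21 ± 0.11 in proliferative cells, and at -0.09 ± 0.07 and 0.14 ± 0.10 in differentiated cells, where neither passed. Nr1h2, an oxysterol-activated nuclear receptor, was at 0.55 ± 0.11 and 0.31 ± 0.10, and Rnf139, a ubiquitin ligase of the endoplasmic reticulum, at -0.55 ± 0.11 and -0.13 ± 0.11.

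Of 9 genes of the isoprenoid branch, 3 were higher and 4 lower in proliferative and 1 higher and 2 lower in differentiated Gne KO cells, where the 1 higher (11.1%) was at the share of all genes and the 3 higher (33.3%) in proliferative cells was near the 28.2% of all genes. Pggt1b, a subunit of the enzyme that attaches geranylgeranyl groups to proteins, was lower in both (-1.66 ± 0.13 and -0.55 ± 0.11), and Ggps1, which makes geranylgeranyl diphosphate, in proliferative cells (-1.01 ± 0.11). Fntb, a subunit of the farnesyltransferase, was at 0.80 ± 0.11 and 0.10 ± 0.12, and Nus1, a subunit of the enzyme that makes dolichol precursors, at -0.79 ± 0.12 and -0.17 ± 0.11. Of 15 genes of sterol uptake, storage and efflux, 13 were tested, and 7 were higher and 3 lower in proliferative and 5 higher and 1 lower in differentiated Gne KO cells (shares of all genes as given for the other lists). Vldlr, a lipoprotein receptor, was at 1.32 ± 0.15 in differentiated cells and Ch25h, cholesterol 25-hydroxylase, at 1.77 ± 0.15 there and -0.91 ± 0.37 in proliferative cells. Abca1, the sterol exporter, was at -1.74 ± 0.39 in proliferative cells, and Npc2, a lysosomal sterol carrier, at 0.92 ± 0.10. Abca1 and Ch25h had low normalized counts in proliferative libraries. Abca1 had 143, 64.4 and 57.1 in WT and 20.7, 41.6 and 18.3 in Gne KO. Ch25h had 16.5, 36.6 and 33.1 in WT and 14.8, 11.6 and 15.1 in Gne KO.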

How the data were processed

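RNA of 12 cultures was made into libraries with a stranded mRNA kit. Per the labels, the authors trimmed reads with cutadapt 1.18, aligned them to GRCm38 with TopHat2 2.1.1, counted them with HTSeq 0.6.1 and tested with DESeq2 1.22.1; no source used here states the strand setting of the counting. The deposited table holds raw counts per gene and library for 48586 of 54838 genes; 6252 genes carry question marks there and were not analysed here. The authors' normalized values, fold changes and p-values in the same table were not used.

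Genes with at least 10 counts in all (20415) were scaled by TMM, written in base R, and fitted by voom in limma 3.58.1 (R 4.3.3) with all 4 groups in 1 fit. Because of the question marks the columns as deposited were not taken as plain counts, so voom was used in place of the count model of the study. The values of the 48586 genes kept were all whole counts. P-values were adjusted by Benjamini-Hochberg over all 20415 genes. Depth of 22612038 to 29389759 counts gave each member 284 or more normalized counts in every library. Fits were tested on simulated data. GC content and length, of the longest transcript in the reference annotation, were known for 99.93% of genes tested. The members, role groups and lists were chosen with earlier results of these data known. All members are named, with values per library for those past the stricter call or the interaction (and for Hmgcs1, Insig1 and Insig2, chosen after their values were seen), and at most 4 genes of each further list, those with the largest changes past the threshold. The alternatives were other scalings and filters, quality weights, limma-trend, the 6 compared libraries alone, a replicate block, removal of the GC and length trend, and leaving out each library. Values per library are given in the order of the replicate numbers 1, 2 and 3.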

Additional observations from a re-analysis of the deposited data

Results flagged for a closer look

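The difference between Gne KO and WT was not the same in the 2 states for 23 members, by the interaction term in limma voom (log2 value ± SE, negative where Gne KO minus WT was lower in differentiated cells, adjusted p from 1.09e-05 for Fdps to 0.0406 for Sc5d). Among the mevalonate enzymes these were Acat2 (-1.10 ± 0.13), Mvk (-1.39 ± 0.17), Pmvk (-1.21 ± 0.16), Mvd (-1.75 ± 0.21), Fdps (-1.24 ± 0.14) and Idi1 (0.86 ± 0.23). Among the squalene and sterol enzymes they were Fdft1 (-0.72 ± 0.15), Sqle (-0.48 ± 0.13), Lss (-0.65 ± 0.13), Tm7sf2 (-0.93 ± 0.19), Nsdhl (-1.13 ± 0.15), Ebp (-1.23 ± 0.17), Dhcr7 (-0.63 ± 0.15) and Sc5d (0.42 ± 0.15). The regulators were Srebf1 (-0.62 ± 0.15) and Srebf2 (-0.54 ± 0.13). The fatty acid enzymes were Fasn (-0.71 ± 0.14), Acly (-0.67 ± 0.11), Scd1 (-1.01 ± 0.13), Scd2 (-0.78 ± 0.10), Fads1 (-0.52 ± 0.11), Fads2 (-1.28 ± 0.20) and Elovl6 (0.67 ± 0.18). Of all genes tested 22.2% had an interaction below 0 and 19.7% above 0 past the threshold, and of the 7188 abundant genes 38.6% and 24.2%. With the GC and length trend of each library removed, 15 of the 20 negative values passed and 0 of the 3 positive ones. The shares of all genes were then 17% below 0 and 17.1% above.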

How the results depend on the processing

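Counts of members past the threshold moved by over 1.5 times in these cases. The share of all genes tested with the same call in the same setting stands in brackets, and it moved too. In proliferative Gne KO against WT, 20 higher (28.2%) became 13 with library size alone (20.5%). With the GC and length trend removed they became 8 without (21.4%) and with the replicate block (20.9%), and 8 lower (27.2%) became 4 (24.1% in both). In differentiated Gne KO against WT, 16 lower (12.5%) became 26 with quality weights (23.1%) and 26 with the 6 libraries alone (22.8%). They became 25 without both proliferative libraries numbered 1 (18.5%), a setting chosen after seeing the data. In WT cells with state, 13 higher (16.6%) became 20 with quality weights (24.9%) and with the 6 libraries alone (22.6%). In the same cells 0 lower (15.3%) became 1 in both (24.6% and 21.5%) and 3 without the libraries numbered 1 (20.1%). In Gne KO cells with state, 5 higher (28.7%) became 8 (37.6%) and 17 lower (27.7%) became 9 (19%) with library size alone. The 17 lower became 11 with the trend removed, without (24.5%) and with the replicate block (24.2%). In place of 3 interactions above 0 (19.7%), 5 were counted with quality weights (19.6%) and 7 without the libraries numbered 1 (24.4%). With the trend removed 0 were counted, without (17.1%) and with the replicate block (16.4%). The stricter call gave 2 in place of 1 in proliferative cells with quality weights and without the libraries numbered 1. In Gne KO cells with state it gave 1 in place of 2 with median-of-ratios scaling and with no filter, 4 with quality weights, 5 without the libraries numbered 1 and 0 with the trend removed, with or without the replicate block. Leaving out 1 library gave 1 to 2 higher in differentiated cells (7.26% to 16%) and 0 to 1 lower in WT cells with state (12.4% to 19.8%). Stricter calls were then 1 to 3 in proliferative cells and 1 to 5 with state in Gne KO cells, the highest without Gne KO proliferative library 1. For the stricter call no share of all genes is given in these settings.

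Single values that changed sign did so mostly with the trend removed. In proliferative cells these were Hsd17b7 (0.0456, with the replicate block 0.0441), Dhcr7 (-0.084, block -0.0853), Srebf2 (-0.014, block -0.014), Stard4 (0.0443, block 0.0451) and Acly (-0.0759, block -0.0766). With state in Gne KO cells they were Fdft1 (0.012, block 0.0116), Sc5d (-0.15, block -0.15), Scap (0.11, block 0.11), Stard4 (-0.42, block -0.42), Acly (0.0645, block 0.0646) and Fads1 (0.0475, block 0.0475), and in the interaction Sc5d (-0.18, block -0.18). Cyp51 with state in Gne KO cells was 0.031 with library size alone, and the interaction of Msmo1 was 0.19 without the libraries numbered 1. The causes were not tested beyond what each setting removes.

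Samples with the same number did not deviate together (correlations of -0.25 to 0.11), so the numbers were not taken as pairs. The replicate block alone moved Idi1 in differentiated cells (-0.47, adjusted p = 0.0615) and the interaction of Sc5d (0.42, adjusted p = 0.0551) above an adjusted p of 0.05 in limma voom and Fads2 in differentiated cells (-0.39, adjusted p = 0.0456) below it.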

Other observations

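Over the 32 members, the median of the log2 CPM centred per gene was -0.27, -0.06 and -0.07 in the WT proliferative libraries, 0.20, 0.20 and 0.18 in WT differentiated, 0.02, 0.11 and 0.19 in Gne KO proliferative and -0.20, -0.19 and -0.16 in Gne KO differentiated. Over all genes tested it lay between -0.06 and 0.06 in every library. WT proliferative library 1, which also held the highest sum of muscle markers among the WT proliferative libraries, was the lowest of the 12 for the members.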
